A study of Homo sapiens with 6 samples.

Results

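The 10 imprinted genes described here were followed in WPMY-1 cells, an immortalised line of stromal cells from normal human prostate: MEG3, H19, IGF2, PEG3, PEG10, MEST, NDN, SNRPN, PLAGL1 and CDKN1C. They were taken by name, and all 10 were found among the 33117 gene rows of the deposited table. Total RNA was sequenced from 3 libraries of cells carrying the empty pLKO1 lentiviral vector (shCtrl) and 3 of cells with a hairpin directed at CAVIN1 (shCAVIN1), which encodes a protein needed to form caveolae, small pits of the cell membrane. Both groups were grown in DMEM with serum, transduced with lentivirus made in HEK293T cells, a human embryonic kidney line, and selected with puromycin, and the knockdown cells are described as stable clones whose number is not given. Each group is described as 3 independent biological replicates, but not whether these were separate transductions, so the p-values reflect only how far these libraries spread, which may be technical. In such bulk RNA, fewer cells expressing a gene and less RNA per cell cannot be told apart. The comparison asks how the RNA of these genes differs between the groups. Since the control vector is empty, lowering of CAVIN1 cannot be told apart from other effects of the hairpin or of clone choice.

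Imprinted genes are transcribed mainly from 1 parental copy, because DNA methylation laid down in the egg or sperm marks a control region near them. They lie in clusters that often pair genes promoting fetal growth with genes restraining it. MEG3, H19 and CDKN1C are expressed from the maternal copy, and IGF2, PEG3, PEG10, MEST, NDN, SNRPN and PLAGL1 from the paternal copy. The table gives 1 value per gene and library and does not separate the copies, so it holds levels and not imprinting as such.

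Values are FPKM, fragments normalised to transcript length and to the mapped fragments of the library, given as mean ± SD with n = 3 per group. Genes with a mean of at least 0.5 FPKM over the 6 libraries were tested on log2(FPKM + 0.5) with limma, and "rose" and "fell" mean a Benjamini-Hochberg adjusted p under 0.05 over all 13941 tested genes. Log2 fold changes are shCAVIN1 over shCtrl on that scale, with their standard error (SE). The scale understates changes of low genes, and a percentage of control divides the mean FPKM of shCAVIN1 by that of shCtrl. CAVIN1 itself, listed as PTRF, stood between 329.6 and 346.9 FPKM in shCtrl and between 133.9 and 150.2 FPKM in shCAVIN1, 42.0% of the control mean. The stromal markers VIM, COL1A1, SPARC and THY1 had control means of 280.4, 79.2, 382.9 and 160.4 FPKM. Of 16 stromal markers, DES and PDGFRA lay below the filter and 14 were tested, of which 3 rose and 8 fell. That is 78.6% changed, against 55.5% of all tested genes. Among those tested, CNN1 fell most, to 10.6% of control, and S100A4 rose most, to 735%. Of the prostate epithelial markers, KLK3, KLK2 and MSMB were listed at 0 in all 6 libraries, whereas the keratin KRT18 was at 385 ± 17.7 FPKM in shCtrl and 219 ± 7.59 FPKM in shCAVIN1. The summed level of 5 endothelial markers was 0.260 to 0.396 FPKM in shCtrl and 1.151 to 1.202 FPKM in shCAVIN1, and that of 5 leukocyte markers 1.608 to 1.998 and 0.908 to 1.142 FPKM. Most of the endothelial sum came from TEK (means of 0.227 and 0.941 FPKM), which reached the filter only through shCAVIN1. The lower leukocyte sum lay mostly in CD14 (means of 1.22 and 0.508 FPKM), whereas PTPRC was higher in shCAVIN1 (0.0409 and 0.135 FPKM). The 5 neuroendocrine markers summed to 30.02 to 32.2 and 33.2 to 37.6 FPKM, most of it from ENO2. The part of these markers in the results below was not tested.

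Promoter sequences are shown for MEST, MEG3 and SNRPN, the members that changed and for which RefSeq (GRCh38.p14) gave a window of 300 bases, most of it before a transcript start. Where a gene had several windows, the one with the most matches to TGCCGC was taken, and the first of equals. TGCCGC is the core motif of ZFP57, the zinc finger protein that protects methylation at imprinted control regions. Capitals mark TGCCGC and its reverse complement GCGGCA. The MEST window is chr7:130491835-130492134 (plus strand), the MEG3 window chr14:100825858-100826157 (plus strand) and the SNRPN window chr15:24954737-24955036 (plus strand).
MEST: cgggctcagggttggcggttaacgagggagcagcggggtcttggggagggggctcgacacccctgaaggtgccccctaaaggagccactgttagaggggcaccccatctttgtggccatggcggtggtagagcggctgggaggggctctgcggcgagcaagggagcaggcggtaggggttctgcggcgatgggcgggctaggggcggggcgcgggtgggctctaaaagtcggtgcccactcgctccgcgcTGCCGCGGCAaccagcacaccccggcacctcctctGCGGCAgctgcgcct
MEG3: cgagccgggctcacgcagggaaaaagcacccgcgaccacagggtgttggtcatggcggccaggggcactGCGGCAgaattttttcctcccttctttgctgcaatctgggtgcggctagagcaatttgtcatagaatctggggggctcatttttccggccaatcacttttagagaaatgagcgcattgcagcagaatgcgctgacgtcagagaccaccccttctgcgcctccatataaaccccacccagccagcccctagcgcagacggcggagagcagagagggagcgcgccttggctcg
SNRPN: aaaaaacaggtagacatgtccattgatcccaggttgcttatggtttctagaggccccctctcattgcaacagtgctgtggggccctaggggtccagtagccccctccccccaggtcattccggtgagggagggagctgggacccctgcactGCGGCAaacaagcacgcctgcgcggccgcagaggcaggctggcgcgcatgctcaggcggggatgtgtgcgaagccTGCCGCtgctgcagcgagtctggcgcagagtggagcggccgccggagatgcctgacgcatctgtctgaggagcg
The MEST window held 3 matches, of which 2 overlap each other, with 25 CpG dinucleotides. The SNRPN window held 2 matches and 18 CpG, and the MEG3 window 1 match and 19 CpG. Across all 35116 windows in the set, 16.7% held the motif and the median was 14 CpG, and across the 14015 windows of tested genes 24.2% held it and the median was 25 CpG. The printed windows were chosen for their matches, so they cannot be compared with these shares. The other SNRPN windows held 0, 0 and 1 match, and the other MEST windows between 0 and 2. These matches are letters only and say nothing about binding, and ZFP57 itself was at most 0.079 FPKM in any library.

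Of the 10 members, 6 were expressed above the filter, 2 (IGF2 and H19) lay far below it, and 2 (PEG3 and NDN) were listed at 0 in all 6 libraries. In shCtrl the order of levels was MEST (115 ± 10.2 FPKM), SNRPN (49.4 ± 2.76), MEG3 (22.3 ± 1.07), PEG10 (12.3 ± 2.56), CDKN1C (6.41 ± 0.672) and PLAGL1 (4.77 ± 0.528). No neighbours in this order overlapped between their libraries, although CDKN1C was only 1.34 times as high as PLAGL1. By the mean over all 6 libraries, both groups together, MEST stood above 95.3% of all tested genes and SNRPN above 86.7%, and CDKN1C and PLAGL1 above 33.4% and 34.9%. In shCAVIN1 the order was the same except that CDKN1C (2.73 ± 0.587 FPKM) lay below PLAGL1 (5.01 ± 0.210 FPKM), again without overlap. IGF2 and H19 followed at under 0.13 FPKM in every library, and their values overlapped in shCtrl.

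Of the 6 tested members, MEG3 and MEST rose, SNRPN and CDKN1C fell, and PEG10 and PLAGL1 did not pass the test. CDKN1C moved most, to 42.6% of control, and the other changes were all under 1.4-fold. That is 4 of 6, where 55.5% of all tested genes passed, 27.3% higher and 28.2% lower, so the share of members that changed is not far from that of the transcriptome. The groups did not overlap for the same 4 members, against 64.6% of all tested genes. The median log2 fold change was 0.15 over the 6 members and -0.02 over all tested genes. Both directions held a maternally and a paternally expressed gene. For each of the 4, p was 0.1 in a two-sided exact permutation test, the smallest value that 3 libraries against 3 allow, and it was 0.3 for PEG10 and 0.6 for PLAGL1.

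**Figure D1:**
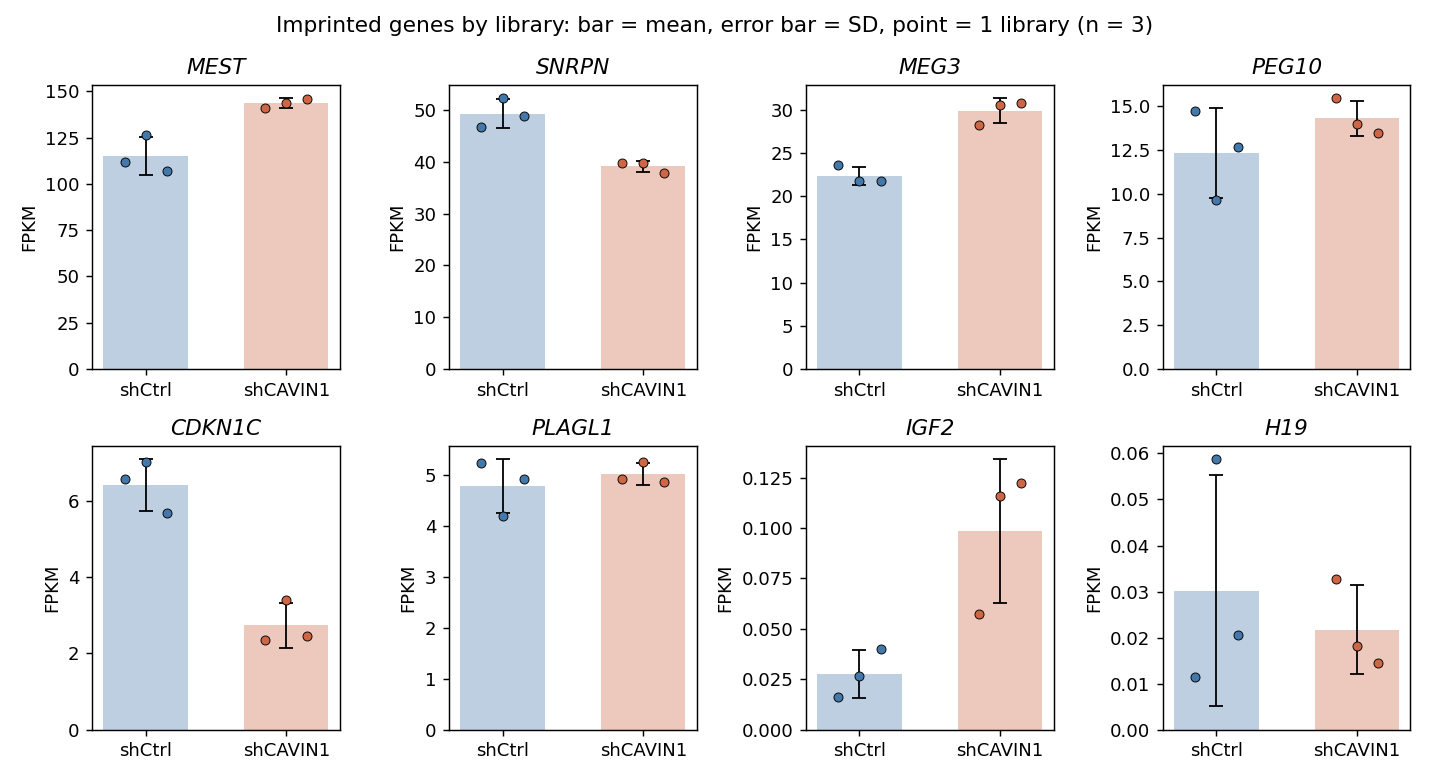
FPKM (vertical axis, linear, from 0, with its own scale in each panel) of the 8 members above 0, by group. Bars are means, error bars SD over 3 libraries and points single libraries. MEST and MEG3 lie higher and SNRPN and CDKN1C lower in every shCAVIN1 library than in any shCtrl library, and IGF2 and H19 lie under 0.13 FPKM.

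CDKN1C encodes p57, an inhibitor of cyclin-dependent kinases that restrains growth. Its levels were 6.56, 7.002 and 5.68 FPKM in shCtrl (libraries are given in the order of their replicate numbers throughout), and 2.34, 3.41 and 2.45 FPKM in shCAVIN1. The lowest control library was well above the highest knockdown library. The log2 fold change was -1.11 (SE 0.141, limma adjusted p = 0.00101). The gene lies at 2883213 to 2885773 on the minus strand of chromosome 11 (GRCh38), in 11p15, and a further row CDKN1C-2 was listed at 0. Of 72 tested genes within 5 Mb of it that are on none of the imprinted lists, 53 fell and 8 rose (84.7% changed), with a median log2 fold change of -0.44, so its surroundings were lower too. Of all tested genes 28.2% fell and 27.3% rose, the shares beside which counts of flanking genes and neighbours here and below are read. CDKN1C was lower than 64 of these 72 genes, and with the median change of the flanking genes taken off in each library its log2 fold change was -0.66 (adjusted p = 0.00564 by limma).

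The other genes of the CDKN1C domain went the same way or did not pass. Of 6 tested neighbours, 4 fell and 0 rose. The transporter gene SLC22A18 fell from 4.16 ± 0.214 to 2.174 ± 0.319 FPKM (log2 -0.81), the nucleosome assembly factor NAP1L4 from 92.8 ± 5.75 to 54.9 ± 0.757 FPKM (log2 -0.75) and TSSC4 from 33.9 ± 1.61 FPKM to 70.8% of that (log2 -0.49). OSBPL5, an oxysterol-binding protein, fell to 86.2% of control (log2 -0.19, limma adjusted p = 0.0333), a call that was lost without shCtrl replicate 1 (0.0684), shCtrl replicate 3 (0.107), shCAVIN1 replicate 1 (0.0983) or shCAVIN1 replicate 2 (0.0955) and under TPM, where each library is rescaled to 1 sum (0.695), quantile normalization (0.126) and no filter (0.0621). PHLDA2, a restrainer of placental growth, was at 24.8 ± 3.46 and 23.9 ± 1.93 FPKM and did not pass, at a log2 value of -0.04 that turned positive under 4 of 15 alternatives. The long RNA KCNQ1OT1, which silences this domain on the paternal copy, was at 1.08 ± 0.334 and 0.885 ± 0.0556 FPKM and did not pass, and KCNQ1, the gene it runs through, was listed at 0 in all 6 libraries. The TSSC4 call was lost when libraries were rescaled to TPM (log2 -0.37, limma adjusted p = 0.156).

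IGF2, a fetal growth factor, and H19, a long RNA transcribed next to it, share an enhancer and a control region, also in 11p15. IGF2 was at 0.0161, 0.0264 and 0.0399 FPKM in shCtrl and at 0.0574, 0.116 and 0.122 FPKM in shCAVIN1. The groups did not overlap, but all 6 values were far below the filter, and the gene was not tested. Without a filter on low values its log2 fold change was 0.18 (limma adjusted p = 0.0331). H19 was at 0.0114, 0.0587 and 0.0205 FPKM in shCtrl and at 0.0326, 0.0181 and 0.0144 FPKM in shCAVIN1, with overlap. INS, IGF2-AS and the microRNA rows MIR483 (within IGF2) and MIR675 (within H19) were listed at 0 in all 6 libraries. For RNAs as short as these microRNAs a 0 may be a failed estimate.

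MEG3 is a long noncoding RNA of 14q32 known as a growth suppressor that raises p53 activity. It stood at 23.6, 21.7 and 21.7 FPKM in shCtrl and at 28.2, 30.6 and 30.8 FPKM in shCAVIN1, without overlap. The mean rose to 134% of control (log2 0.41, SE 0.0553, limma adjusted p = 0.00128). The gene lies at 100779410 to 100861031 on the plus strand of chromosome 14. Of 58 tested flanking genes, 38 rose and 3 fell, with a median of 0.29 on the log2 scale. MEG3 lay above 34 of them and below 24, and after the flanking median was taken off in each library its log2 fold change was 0.052 (limma adjusted p = 0.497), no longer past the threshold.

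Downstream of MEG3, MEG8 rose from 4.17 ± 0.696 to 7.92 ± 0.843 FPKM (log2 0.86), more than MEG3 itself. RTL1, a retrotransposon-derived gene transcribed from the other strand, rose from 0.751 ± 0.130 to 1.36 ± 0.101 FPKM (log2 0.57). MEG9, at the far end of the cluster, was at 0.529 ± 0.0739 and 0.707 ± 0.0281 FPKM, without overlap and without passing the test (limma adjusted p = 0.0802, and 0.0248 after quantile normalization). DLK1 and DIO3, the protein-coding genes at the ends of the cluster, were listed at 0 in all 6 libraries. Of 53 rows for microRNAs of 14q32 and the host transcript MIR381HG, 52 were listed at 0 throughout. For such short RNAs a 0 may be a failed estimate and is not read as absence. MIR381HG was at most 0.346 FPKM. The snoRNA rows SNORD113 and SNORD114 were above 0 in only 3 cases (SNORD114-11, SNORD114-14 and SNORD114-21, named after their values were seen), each listed at 0 in at least 4 of 6 libraries, and none of them passed. SNORD114-11, listed at 0 except for 673 and 656 FPKM in shCAVIN1 replicates 2 and 3, did pass without shCAVIN1 replicate 1 (limma adjusted p = 2.39e-07) and under TPM (0.0478).

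SNRPN encodes SmN, a protein of the small nuclear ribonucleoproteins that splice RNA, and its transcription start lies in the control centre of the Prader-Willi region of 15q11. It stood at 46.8, 52.3 and 49.0 FPKM in shCtrl and at 39.8, 39.8 and 37.8 FPKM in shCAVIN1, without overlap. The mean fell to 79.3% of control (log2 -0.33, SE 0.0529, limma adjusted p = 0.00261). The gene spans 24823637 to 24978723 on the plus strand of chromosome 15. Only 11 flanking genes were tested, among them 4 HERC2 pseudogenes that share sequence with HERC2, and 3 fell and 1 rose, with a median of -0.22. SNRPN was lower than 9 of the 11, and with the flanking median taken off its log2 fold change was -0.13 and did not pass (limma adjusted p = 0.212). The call was also lost after rescaling to TPM, at a log2 fold change of -0.21 (limma adjusted p = 0.417).

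The noncoding RNAs downstream of SNRPN fell further than SNRPN did. PWAR5 fell from 7.80 ± 1.24 to 3.77 ± 0.152 FPKM (log2 -0.95), PWARSN from 7.25 ± 0.726 to 3.66 ± 0.434 FPKM (log2 -0.90) and IPW from 1.78 ± 0.319 to 0.910 ± 0.212 FPKM (log2 -0.70). UBE3A, the ubiquitin ligase lost in Angelman syndrome, fell to 69.3% of control, at 17.3 ± 0.138 FPKM (log2 -0.52), a call lost under TPM (log2 -0.40, limma adjusted p = 0.114). SNURF, which shares its transcript with SNRPN, was the exception, at 0.853, 1.74 and 0.571 FPKM in shCtrl and 2.23, 1.53 and 1.38 FPKM in shCAVIN1. These overlapped and did not pass (limma adjusted p = 0.149), though without shCtrl replicate 2 the log2 fold change was 0.86 (limma adjusted p = 0.0154). The split of fragments between SNURF and SNRPN is uncertain. NDN, which encodes necdin, a growth-suppressing protein of neurons, was listed at 0 in all 6 libraries, as was its neighbour MAGEL2.

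The SNORD116 snoRNAs are cut from the introns of the same long transcript. Of 116 rows for SNORD113 to SNORD116, 17 reached the filter, of which 3 fell and 0 rose. That is 17.6% changed, below the 55.5% of all tested genes. SNORD116-20 was at 104, 45.7 and 145 FPKM in shCtrl and was listed at 0 in all 3 shCAVIN1 libraries. It thus reached the filter only through shCtrl, which ties its direction to its entry. SNORD116-18 was at 225, 148 and 311 FPKM in shCtrl and, in shCAVIN1, at 71.4 FPKM in replicate 3 and listed at 0 in the other 2. SNORD116-16 was at 197, 86.5 and 274 FPKM in shCtrl and, in shCAVIN1, at 69.4 FPKM in replicate 1 and listed at 0 in the other 2. For such short RNAs 1 fragment is worth many FPKM and a 0 may be a failed estimate, and the copies are near-identical. The calls of SNORD116-18 and SNORD116-16 were lost without any 1 of the shCtrl libraries (limma adjusted p of 0.0584 to 0.104) and without shCAVIN1 replicate 2 (0.0909 and 0.112), and those of SNORD116-18 and SNORD116-16 also without shCAVIN1 replicate 1 (0.0912) and replicate 3 (0.113), respectively.

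MEST, also called PEG1, encodes a membrane protein of the hydrolase family that is made in fetal mesoderm and growing fat tissue. It was the most abundant member, at 112, 126 and 107 FPKM in shCtrl and 141, 144 and 146 FPKM in shCAVIN1. Every knockdown library was above the highest control library. The mean rose to 125% of control (log2 0.32, SE 0.0694, limma adjusted p = 0.00880). MEST lies at 130486171 to 130506465 on the plus strand of chromosome 7, in 7q32, where 7 of 40 tested flanking genes rose and 14 fell, at a median of -0.10. It was above 37 of these 40 genes, and with the flanking median taken off its log2 fold change was 0.39 (limma adjusted p = 0.00902). The call was lost after rescaling to TPM, where the log2 fold change was larger (0.44) but its SE was 0.201 (limma adjusted p = 0.138).

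Around MEST, the carboxypeptidase gene CPA4 rose from 29.7 ± 0.982 to 74.8 ± 0.970 FPKM (log2 1.32, limma adjusted p = 8.93e-06), the largest change among the neighbours tested at any of these loci. COPG2, a vesicle coat subunit that runs toward MEST from the other strand, fell from 9.84 ± 0.709 to 8.12 ± 0.441 FPKM (log2 -0.26, limma adjusted p = 0.0179). That call was lost without shCtrl replicate 1 (0.0507), shCtrl replicate 3 (0.0634), shCAVIN1 replicate 2 (0.0596) or shCAVIN1 replicate 3 (0.0639) and under TPM (0.465). KLF14 did not pass, at 0.522 ± 0.168 and 0.502 ± 0.0856 FPKM, and the sign of its log2 value (-0.02) turned under 4 of 12 alternatives.

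PEG10 is a retrotransposon-derived gene of 7q21 needed for the placenta. It was at 14.7, 9.62 and 12.7 FPKM in shCtrl and at 15.4, 13.97 and 13.5 FPKM in shCAVIN1. The groups overlapped, with shCtrl replicate 1 above 2 of the knockdown libraries and shCtrl replicate 2 the lowest of all. Its log2 fold change was 0.22 (SE 0.149, limma adjusted p = 0.247), and 0.06 without shCtrl replicate 2. Of 44 tested genes flanking it at 94656325 to 94669695 on chromosome 7 (plus strand), 26 fell and 5 rose, at a median of -0.28, and PEG10 lay above 39 of them. With the flanking median taken off, its log2 fold change was 0.50 and passed (limma adjusted p = 0.0446).

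Next to PEG10, SGCE, the epsilon-sarcoglycan gene that starts head to head with it, rose from 15.3 ± 0.873 to 17.8 ± 0.381 FPKM (log2 0.22, limma adjusted p = 0.0129). The SGCE call was lost without shCAVIN1 replicate 2 (0.0544) and under TPM (0.176). PPP1R9A, which encodes the actin-binding protein neurabin, rose from 0.464 ± 0.0512 to 1.01 ± 0.0579 FPKM (log2 0.65), and the protease inhibitor TFPI2 from 6.33 ± 0.250 to 11.3 ± 0.352 FPKM (log2 0.79). CASD1, a sialic acid acetyltransferase, fell from 5.58 ± 0.301 to 4.61 ± 0.151 FPKM (log2 -0.25, lost under TPM at -0.14, limma adjusted p = 0.551). Of the 4 tested neighbours 3 rose, while 26 of 44 flanking genes fell and 5 rose, a contrast that was not tested. The neighbours were listed with earlier results of these data known. PPP1R9A reached the filter only through shCAVIN1, as its shCtrl mean lay under 0.5 FPKM.

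PLAGL1, also called ZAC1, encodes a zinc finger transcription factor that can stop the cell cycle and regulates other imprinted genes. It was at 5.22, 4.19 and 4.91 FPKM in shCtrl and at 4.92, 5.25 and 4.86 FPKM in shCAVIN1, with overlap. Its log2 fold change was 0.07 (SE 0.0837, limma adjusted p = 0.522), and -0.01 without shCtrl replicate 2. The gene lies at 143940300 to 144064599 on the minus strand of chromosome 6, in 6q24, among 22 tested flanking genes of which 8 rose and 7 fell (median 0.04). HYMAI, a noncoding RNA that starts inside PLAGL1, fell from 0.844 ± 0.266 to 0.447 ± 0.104 FPKM (log2 -0.49, limma adjusted p = 0.0472), a call at the threshold. It was lost without shCtrl replicate 1 (0.0994), shCtrl replicate 3 (0.0943), or shCAVIN1 replicate 1 (0.0518), 2 (0.124) or 3 (0.127), under TPM (0.0943), after quantile normalization (0.0586) and without a filter (0.0618). HYMAI reached the filter only through shCtrl, as its shCAVIN1 mean lay under 0.5 FPKM.

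PEG3, a zinc finger gene of chromosome 19 at 56810077 to 56840728 (minus strand), was listed at 0 in all 6 libraries. ZIM2, MIMT1 and PEG3-AS1 beside it were also listed at 0 throughout. A value of 0 in this table may be a failed estimate. Of all 33117 rows, 10537 were at 0 in every library.

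**Figure D2:**
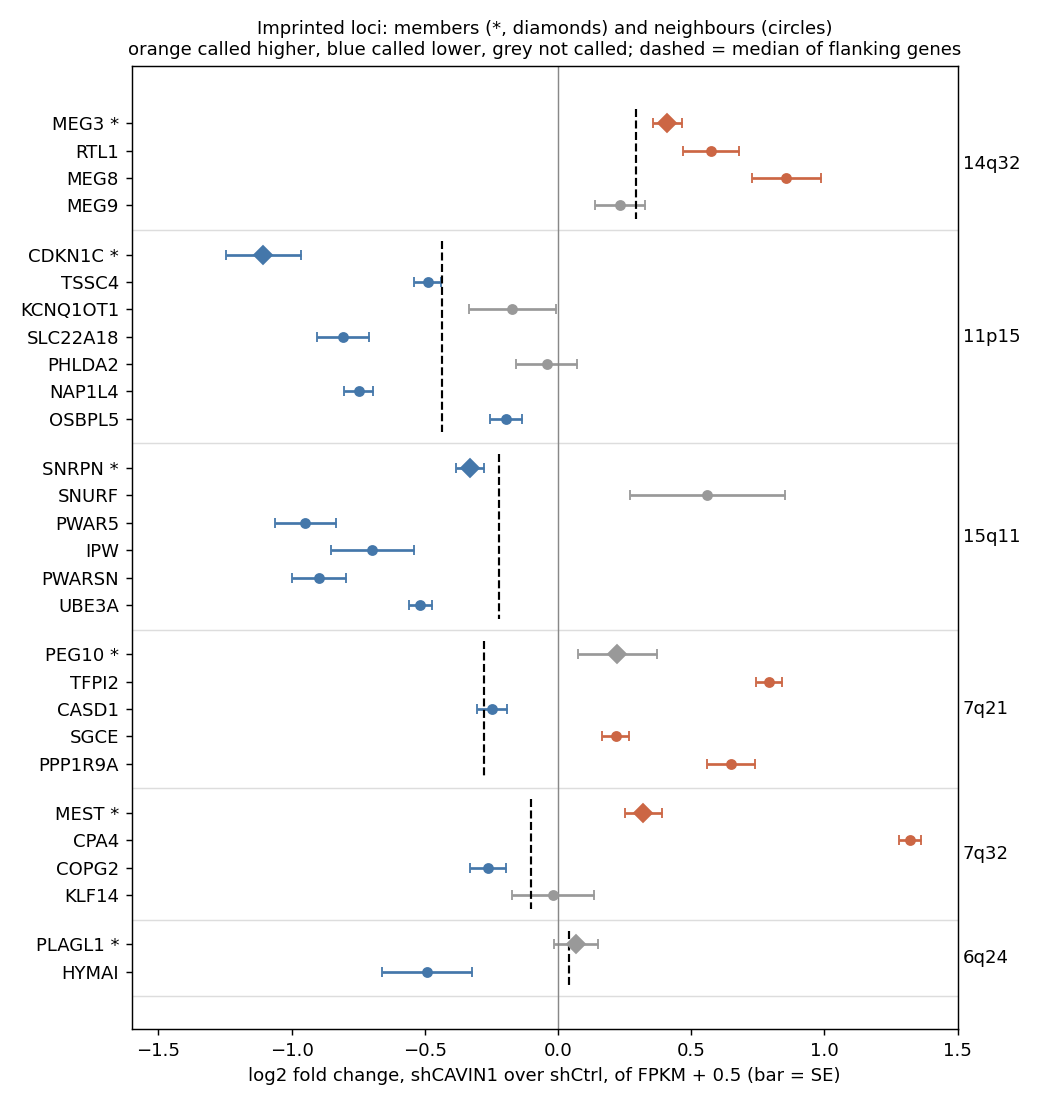
Log2 fold change of FPKM + 0.5 in shCAVIN1 over shCtrl (horizontal axis, bars are SE) for tested members (diamonds, starred) and tested neighbours (circles), by locus. Orange passed higher, blue passed lower and grey did not pass, and each dashed line is the median of tested genes within 5 Mb outside the imprinted lists and the SNORD113 to SNORD116 rows. MEG3 (0.41) and SNRPN (-0.33) lie within 0.2 of their dashed lines (0.29 and -0.22), and CDKN1C (-1.11) and MEST (0.32) lie farther from theirs (-0.44 and -0.10).

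Over all loci, 22 of 42 neighbour rows were tested, and 6 rose, 11 fell and 5 did not pass (77.3% changed, against the 55.5% of all tested genes). Their median log2 fold change was -0.18. Under TPM scaling 5 rose and 5 fell. These neighbours were listed with earlier results of these data known, so their share cannot be read as a result about them. Among flanking genes the share that changed was 84.7% around CDKN1C, 70.7% around MEG3 and 70.5% around PEG10. It was 68.2% around PLAGL1, 52.5% around MEST and 36.4% around SNRPN. PPP1R9A and HYMAI reached the filter only through the group where they were higher. Genes that overlap each other (SNRPN and SNURF, PLAGL1 and HYMAI, RTL1 and MEG8, KCNQ1 and KCNQ1OT1, MEST with MESTIT1 and COPG2, PEG10 and SGCE, UBE3A and the long RNA opposite to it) are uncertain as single genes, since the strand setting of the counting is not given in the sources used here.

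Imprinted genes elsewhere in the genome fell more often than they rose, without a test of that difference. Of 38 such genes, 35 had a row and 20 were tested. Of these, 1 rose, 8 fell and 11 did not pass, with a median of -0.19. The share that changed was 45.0%, below the 55.5% of all tested genes, for a list chosen with earlier results of these data known. The signalling adaptor GRB10, a brake on insulin and IGF receptors, fell from 7.73 ± 0.215 to 3.97 ± 0.160 FPKM (log2 -0.88), and the zinc finger gene ZDBF2 from 6.51 ± 0.287 to 3.25 ± 0.183 FPKM (log2 -0.90). GNAS, the stimulatory G protein subunit, fell from 562 ± 22.0 to 339 ± 4.61 FPKM (log2 -0.73), and ZNF331 from 11.1 ± 0.128 to 7.96 ± 0.114 FPKM (log2 -0.45, lost under TPM at -0.34, limma adjusted p = 0.126). The single riser was ZFAT (3.44 ± 0.296 to 4.25 ± 0.323 FPKM, limma adjusted p = 0.0303, named after its values were seen), whose call was lost without shCtrl replicate 2 or 3 or any 1 shCAVIN1 replicate (0.0530 to 0.0984), with the replicate block (0.0768), without a filter (0.0568) and under TPM (0.0719). Under TPM 0 of these genes rose and 5 fell.

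Imprint maintenance factors, as listed here, went both ways. The list also holds TET1, TET2 and TET3, which act against DNA methylation and are not keepers of imprints. TET1 (log2 -0.72) and TET3 (log2 -0.65, past the threshold in 11 of 15 alternatives) are counted among the genes that fell. TET2 did not pass. These TET genes were named with their values known. Of 33 genes, 7 lay below the filter and 26 were tested. Of these, 9 rose, 9 fell and 8 did not pass (69.2% changed, against 55.5% of all tested genes, median -0.02). This list was chosen with earlier results of these data known, so its share cannot be read as a result about these factors. The de novo methyltransferase DNMT3A fell from 5.85 ± 0.164 to 3.76 ± 0.0823 FPKM (log2 -0.57) and the chromatin remodeller ATRX from 17.9 ± 0.704 to 12.3 ± 0.113 FPKM (log2 -0.52). Of the cohesin subunits, SMC1A rose to 137% of control, at 20.5 ± 0.596 FPKM (log2 0.44) and STAG2 fell from 75.3 ± 5.16 to 54.5 ± 1.62 FPKM (log2 -0.46). The maintenance methyltransferase DNMT1 and its partner UHRF1 rose to 116% and 124% of control, ZNF445, a zinc finger keeper of imprints, fell to 74.4%, and TRIM28, the corepressor it recruits, did not pass at 49.8 ± 1.19 and 47.2 ± 1.31 FPKM. These 4 were chosen for their role with their values known. Under TPM 2 rose and 3 fell, and the calls of ATRX, STAG2, DNMT1, UHRF1 and ZNF445 were lost.

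The IGF2 and CDKN1C members act on insulin-like growth factor receptors and on the cyclin-dependent kinases. Of 21 genes of these axes, 20 were tested. Of these, 8 rose, 10 fell and 2 did not pass (90.0% changed, against 55.5% of all tested genes, median -0.12). This list was chosen with earlier results of these data known, so its share cannot be read as a result about these axes. The IGF2 mRNA-binding protein IGF2BP3 fell from 18.5 ± 0.232 to 12.2 ± 0.178 FPKM (log2 -0.58, lost under TPM at -0.46, limma adjusted p = 0.0567), the receptor substrate IRS1 from 23.5 ± 1.79 to 14.3 ± 0.514 FPKM (log2 -0.69) and LIN28B, a blocker of let-7 microRNAs, from 1.85 ± 0.135 to 0.641 ± 0.106 FPKM (log2 -1.04). CDKN1A, which encodes p21 of the same inhibitor family as CDKN1C, rose from 31.5 ± 2.15 to 48.8 ± 0.377 FPKM (log2 0.63), against the fall of CDKN1C. Of the kinases, CDK2 rose from 83.3 ± 6.15 FPKM to 120% of control (log2 0.26) and CDK4 from 110 ± 5.27 to 129 ± 1.73 FPKM (log2 0.23), calls that were lost under TPM (limma adjusted p of 0.162 and 0.183), whereas CDK6 fell from 31.4 ± 7.06 to 12.8 ± 0.235 FPKM (log2 -1.23). IGF1R, the receptor through which IGF2 signals, fell from 6.40 ± 2.34 to 2.85 ± 0.572 FPKM (log2 -0.99, limma adjusted p = 0.0218). The IGF1R call was lost without shCtrl replicate 3 (0.0673), shCAVIN1 replicate 2 (0.0630) or shCAVIN1 replicate 3 (0.0697). Other genes of this axis went up. The receptor substrate IRS2 rose from 2.72 ± 0.654 to 5.72 ± 0.436 FPKM (log2 0.97). The insulin receptor INSR rose from 1.28 ± 0.150 to 1.90 ± 0.139 FPKM (log2 0.43). IRS2 and INSR were also named with their values known. The other member of the family, CDKN1B, was at 42.8 ± 5.46 and 42.8 ± 2.27 FPKM and did not pass (the 3 kinases, IGF1R and CDKN1B were chosen with their values known). CDKN1C was thus the least abundant of the inhibitor family in both groups. IGF2R, itself imprinted in mouse, was at 20.4, 9.61 and 15.6 FPKM in shCtrl and 14.003, 11.02 and 10.7 FPKM in shCAVIN1 and did not pass, but without shCtrl replicate 2 it was lower (log2 -0.57, limma adjusted p = 0.0297).

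**Figure D3:**
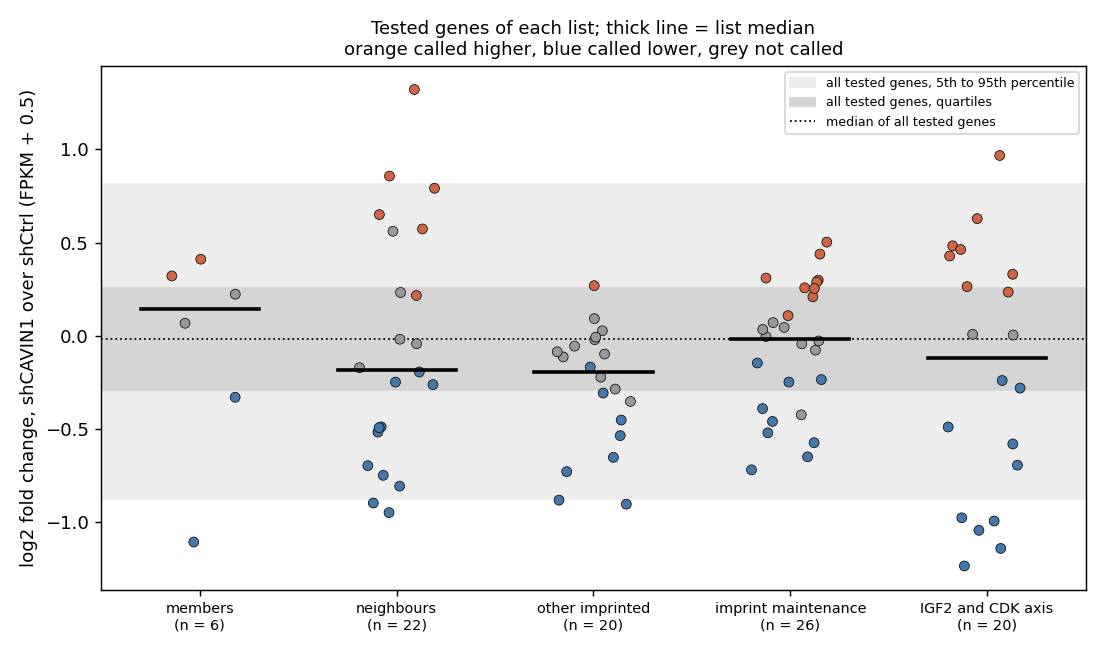
Log2 fold change of FPKM + 0.5 (vertical axis) of each tested gene, by list. Points are genes, thick lines list medians, grey bands the quartiles (darker) and the 5th to 95th percentiles of all tested genes and the dotted line their median (-0.02). Members sit at a median of 0.15, neighbours at -0.18 and other imprinted genes at -0.19, all inside the darker band.

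The genes most like each changed member over the 6 libraries were ranked by the root mean square difference of their centred log2 values, where smaller is more alike. For SNRPN these were ZNF131 (0.00825) and FANCI (0.0149), for MEG3 SF3B4 (0.0124) and NACC1 (0.0213), and for MEST TMEM219 (0.0161) and CDC25C (0.0189). Between 928 and 1733 genes lay within 0.1 of each of these members, so their patterns were common. Only 4 genes lay within 0.1 of CDKN1C, the nearest being ZNF256 (0.0819) and CCDC181 (0.0953). Among the members themselves MEG3 and MEST were the closest (0.104) and MEG3 and CDKN1C the farthest apart (0.774).

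**Figure D4:**
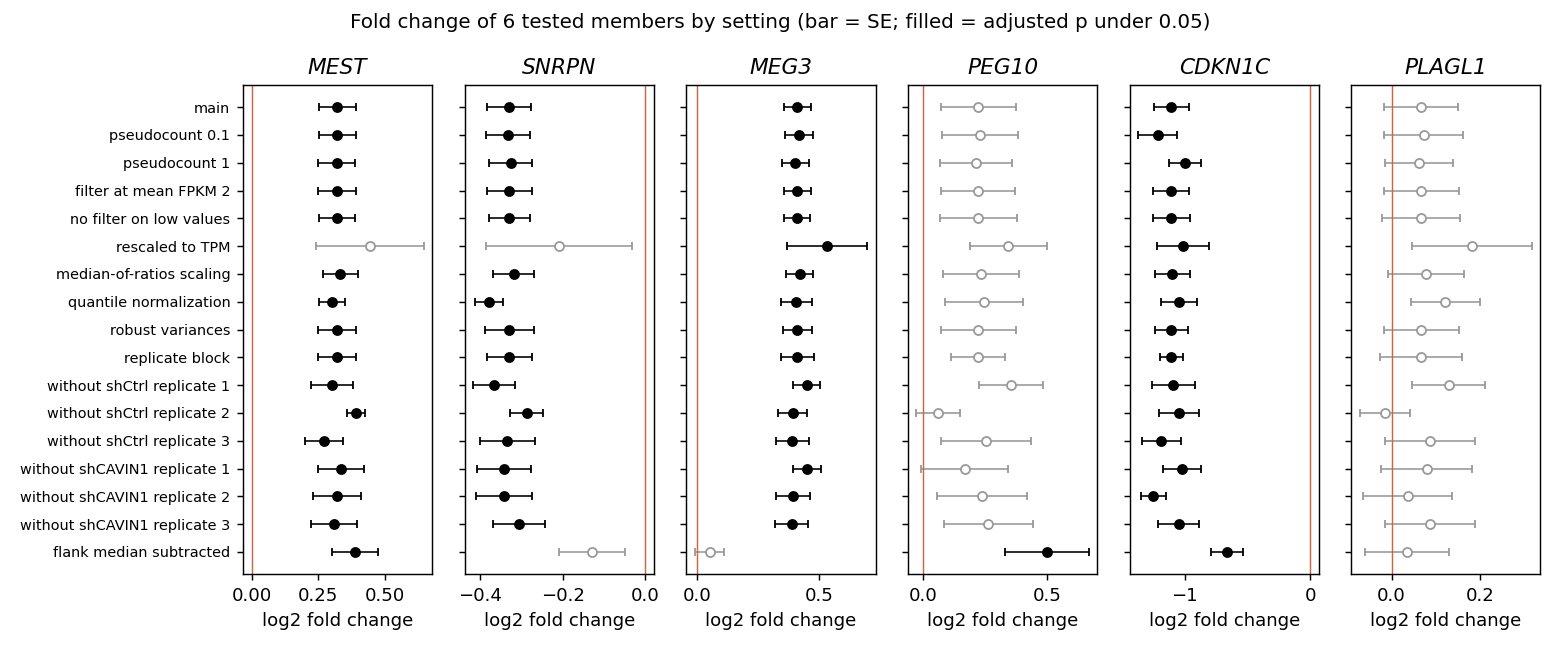
Log2 fold change (horizontal axes, each with its own scale, bars are SE) of the 6 tested members as reported and under 16 alternatives. Filled points have an adjusted p under 0.05. CDKN1C passed under all 16, MEG3 and MEST under 15 and SNRPN under 14.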

How the data were processed

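Per the labels, TRIzol was used to isolate RNA, and a strand-keeping Illumina total RNA kit to prepare libraries. The authors deposited FPKM values for gene symbols in 6 libraries. Per the submitters' processing notes, the build was GRCh38 and the tools CASAVA, bcl2fastq 2.17.1.14, TopHat2 (given as 2.2.5) and TopHat. Not given in the sources used here: quantifier, annotation, strand setting. Depth is unknown, so no counting interval is given. Library sums were 758837 to 1043840 FPKM and the 10 highest rows held 21.1% to 42.6% of a sum.

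Genes with a mean FPKM of at least 0.5 were tested (13941) on log2(FPKM + 0.5) with limma 3.58.1 (R 4.3.3; a fit on group alone, with eBayes and trend), with Benjamini-Hochberg adjustment and a threshold of 0.05, and the procedure was tested on simulated data. Positions are from GENCODE 29 (GRCh38), matched by symbol for 88.8% of tested genes. Flanking genes are tested genes within 5 Mb on none of the imprinted lists and not SNORD113 to SNORD116 rows, a step chosen after seeing the data. The members and lists were chosen with earlier results of these data known. Named genes are all members, all tested neighbours, and of each other list up to 4 genes with the lowest adjusted p (in a list with no call, the 2 most abundant), the 2 genes most like each changed member, and CAVIN1. For the marker lists only a part of these is given. Alternatives varied the pseudocount, filter, scaling, variance model and libraries.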

Additional observations from a re-analysis of the deposited data

How the results depend on the processing

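Every tested member kept its direction in all 16 alternatives except PLAGL1, which did not pass in any of them. Rescaling each library to TPM moved these counts: 3496 of all genes changed against 7734 (64.5% higher against 49.2%), 2 members (MEG3 and CDKN1C) against 4, 10 neighbours against 17, 5 other imprinted genes against 9, 5 imprint maintenance factors against 18, 10 genes of the IGF2 and CDK axis against 18, and 5 of the SNORD rows against 3. The median log2 fold change over all genes went from -0.02 to 0.09, and log2 fold changes of MEST and SNRPN to 0.44 and -0.21, neither past the threshold. Under the subtraction of the flanking median, chosen after seeing the data, MEG3 (0.052) and SNRPN (-0.13, from 11 flanking genes) no longer passed and PEG10 (0.50) did, leaving 3 members changed. SNORD rows fell to 1 call without a filter and with robust variances. With 1 library left out, the ranges were 4 members in each case, 6227 to 8511 of all genes, 13 to 18 neighbours, 6 to 9 other imprinted genes, 14 to 19 maintenance factors, 15 to 18 of the IGF2 and CDK axis and 1 to 3 SNORD rows. Member log2 fold changes then ran from 0.39 to 0.45 (MEG3), 0.06 to 0.35 (PEG10), 0.27 to 0.39 (MEST), -0.37 to -0.29 (SNRPN), -0.01 to 0.13 (PLAGL1) and -1.25 to -1.02 (CDKN1C). Deviations of same-numbered libraries correlated at 0.09, 0.07 and -0.03, so the numbers were not treated as pairs. With the replicate block the 4 members passed, CDKN1C at -1.11 with limma adjusted p = 0.00187. The cause of these shifts was not tested. Depth is unknown, so how far it limits IGF2 and H19, far below the filter, was not tested.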

Other observations

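A few imprinted transcripts below the filter also had no overlap between the groups and were singled out after their values were seen. MESTIT1, the RNA antisense to MEST, was at 0.191, 0.149 and 0.110 FPKM in shCtrl and at 0.0419, 0.0354 and 0.0495 FPKM in shCAVIN1, lower where MEST was higher. ATP10A, a lipid flippase gene beyond UBE3A in 15q11, was at 0.114, 0.0780 and 0.0865 FPKM in shCtrl and was listed at 0 in all 3 shCAVIN1 libraries. Other such transcripts went either way. GNAS-AS1 (means of 0.0552 and 0.240 FPKM), WT1 (0.0709 and 0.195) and SGK2 (0.0558 and 0.0983) were higher in shCAVIN1, as was IGF2. DIRAS3 (0.593 and 0.388) and NTM (0.136 and 0) were lower. Lack of overlap was common above the filter, at 64.6% of all tested genes, but its share among rows below the filter was not counted. None of these transcripts was tested, and at these levels a few fragments may set the value.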
